A study of Mus musculus with 6 samples.

Results

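The genes described here encode splicing factors and hnRNP proteins (heterogeneous nuclear ribonucleoproteins) of the mouse ear epidermis. They were taken by name. A gene belongs to the set if its symbol begins, in either case, with SRSF, HNRNP, SNRP, SF3A, SF3B or U2AF. The rule found 56 of 20522 gene symbols, spread over 106 transcripts. By role these are 8 genes of the Sm core, 2 of the U1 particle, 14 of the U2 particle and the 3′ splice site, 11 SR proteins and 21 hnRNP genes. The rule uses no measured value. It does not catch the small nuclear ribonucleoprotein genes spelled Snrnp, which are given further on with the other spliceosome genes.

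Splicing removes introns from new transcripts. The U1 particle binds the start of an intron. U2AF finds the 3′ splice site and brings in the U2 particle, whose SF3A and SF3B proteins hold the branch point, and a tri-snRNP of U4, U6 and U5 then completes the machine. The Sm proteins form a ring around the RNA of most of these particles, the SR proteins mostly favour the use of nearby exons, and hnRNP proteins coat new transcripts and often oppose it. In the epidermis keratinocytes divide in the basal layer, rise through spinous and granular layers, and lose their nucleus, where splicing takes place, on becoming cornified cells.

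RNA was sequenced from 3 ETA sheets and 3 Epidermal sheets of ear skin from female C57BL6/N mice, 8 weeks old. An ETA sheet is the upper epidermis, peeled off with exfoliative toxin A, a bacterial protease that cuts desmoglein 1; the series text places granular cells called SG1 and SG2 in it. An Epidermal sheet is the whole epidermis, freed with dispase, so the layers sampled and the solution used cannot be told apart. All mice are of the same strain with no allele or further agent named, and the labels do not tie sheets to animals, so the p-values reflect only how these sheets varied.

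The deposited values are TPM, shares of transcripts that correct for transcript length and add up to 1000000 in each library. Sequencing depth is unknown from them. The 12 basal keratinocyte markers summed to 154 to 300 TPM in ETA sheets and to 17329 to 19670 TPM in Epidermal sheets, and all 12 fell. The 13 granular markers all rose. Marker sums of sebaceous gland, hair follicle, melanocytes, T cells and Langerhans cells were lower in ETA sheets with no overlap. Of the 6 Langerhans cell markers 1 was called higher and 5 lower, and 5 of 6 sebaceous gland markers had a lower mean in ETA sheets. Fibroblast markers went the other way, with 55.97 to 66.56 TPM in ETA sheets and 7.27 to 10.8 TPM in Epidermal sheets, and 5 of 5 tested rose. Merkel cell sums overlapped. Mlana, Krt28, Krt31 and Atoh1 were listed at 0 in all 3 ETA sheets. ETA sheet replicate 2 stood apart, with 209 genes of at least 10 TPM on average listed at 0, against 12 to 30 such genes in the other libraries. Column headers and titles that carry the same library number name different sheets in 4 of 6 cases, 2 of which put the library in another group; the titles were followed. Grouped by header, 0 genes passed in limma and 87 had an unadjusted p under 0.05, none of them a member.

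Promoter sequences are shown for 4 members at the ends of the range of change described below. Snrpd2 and Snrpa1 had the largest decreases in ETA sheets, and Srsf5 and Hnrnph3 were among the smallest. Each run gives the 250 bases before the gene's start, 5′ to 3′ on the gene's strand, from RefSeq on build GRCm38.p6. The deposited values were made on mm9, so these positions belong to another build. They are chr7:19149588-19149837 on the plus strand for Snrpd2, chr7:66060086-66060335 on the plus strand for Snrpa1, chr12:80945249-80945498 on the plus strand for Srsf5 and chr10:63023850-63024099 on the minus strand for Hnrnph3. Capitals mark matches, on either strand, to GGGCGG (the GC box) or CCGGAAG (the core bound by ETS factors).
Snrpd2: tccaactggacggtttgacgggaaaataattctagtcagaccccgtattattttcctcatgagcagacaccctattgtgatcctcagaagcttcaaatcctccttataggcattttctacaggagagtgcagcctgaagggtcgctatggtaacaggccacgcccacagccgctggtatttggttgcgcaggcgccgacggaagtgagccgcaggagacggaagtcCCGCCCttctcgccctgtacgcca
Snrpa1: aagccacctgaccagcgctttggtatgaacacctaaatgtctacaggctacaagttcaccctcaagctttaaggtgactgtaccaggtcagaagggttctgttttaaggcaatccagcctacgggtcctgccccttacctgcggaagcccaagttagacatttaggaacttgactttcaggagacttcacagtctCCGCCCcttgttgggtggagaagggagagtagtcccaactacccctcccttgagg
Srsf5: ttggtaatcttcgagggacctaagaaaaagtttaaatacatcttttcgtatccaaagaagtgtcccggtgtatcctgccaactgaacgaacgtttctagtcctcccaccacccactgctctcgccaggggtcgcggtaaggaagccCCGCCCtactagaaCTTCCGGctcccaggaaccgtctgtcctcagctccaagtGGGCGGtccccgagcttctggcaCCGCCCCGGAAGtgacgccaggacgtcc
Hnrnph3: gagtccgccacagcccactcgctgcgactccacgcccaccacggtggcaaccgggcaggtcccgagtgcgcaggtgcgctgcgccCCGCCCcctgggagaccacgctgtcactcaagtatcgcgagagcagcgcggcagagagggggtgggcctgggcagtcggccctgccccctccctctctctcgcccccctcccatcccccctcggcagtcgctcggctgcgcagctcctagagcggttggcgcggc

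All 4 windows hold a GC box. Srsf5 has 3 GC boxes and 2 ETS cores, and the last of each share a base, while Snrpd2, Snrpa1 and Hnrnph3 have 1 GC box and no ETS core. RefSeq windows were found for 49 of the 56 members, 67 windows in all, and were set beside all 32851 windows of the table. The windows add 50 bases past the start, but only the 250 bases before it were searched for motifs. The GC box was in 65.7% of the members' windows and in 32.7% of all windows. The ETS core was in 28.4% of the members' windows and in 6.91% of all windows. The CCAAT motif was in 44.8% of the members' windows and in 33.8% of all windows, the E box CACGTG in 7.46% of the members' and 6.02% of all windows, and TATAAA in 10.4% of the members' and 12.4% of all windows. The table of all windows includes non-coding genes, several windows may belong to the same gene, and a match is a run of letters and not a bound site.

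Nearly the whole set was lower in ETA sheets. The 56 genes held 0.182%, 0.111% and 0.147% of library TPM in the ETA sheets, against 0.660%, 0.648% and 0.710% in the Epidermal sheets. The groups do not overlap, and the mean share was 0.147% ± 0.036 in ETA sheets and 0.673% ± 0.033 in the Epidermal sheets (n = 3 each, SD), a 4.59-fold difference. The exact permutation test gave a two-sided p of 0.1, and 3 against 3 cannot give a smaller one. In bulk tissue, fewer cells with these transcripts and less of them per cell cannot be told apart.

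Gene by gene, 54 members passed the filter of a mean of 1 TPM, and 52 of them fell in ETA sheets while 0 rose (limma on log2(TPM + 1), Benjamini-Hochberg adjusted p under 0.05 over 11683 genes). The 52 are 96.3% of those tested. Of all genes tested, 63.6% were called lower and 10.1% higher. U2af1l4 and Snrpn did not pass, and Srsf12 and the pseudogene Hnrnpa1l2-ps2 were under the filter. The same 52 members had no overlap in TPM between the groups, a pattern found in this direction for 66.0% of genes tested. The median log2 fold change of the members was -2.12, against -1.34 for all genes tested, and 46 of the 54 lay below that general median. The members' level in ETA sheets was, at the median, 22.5% of that in Epidermal sheets.

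**Figure D1:**
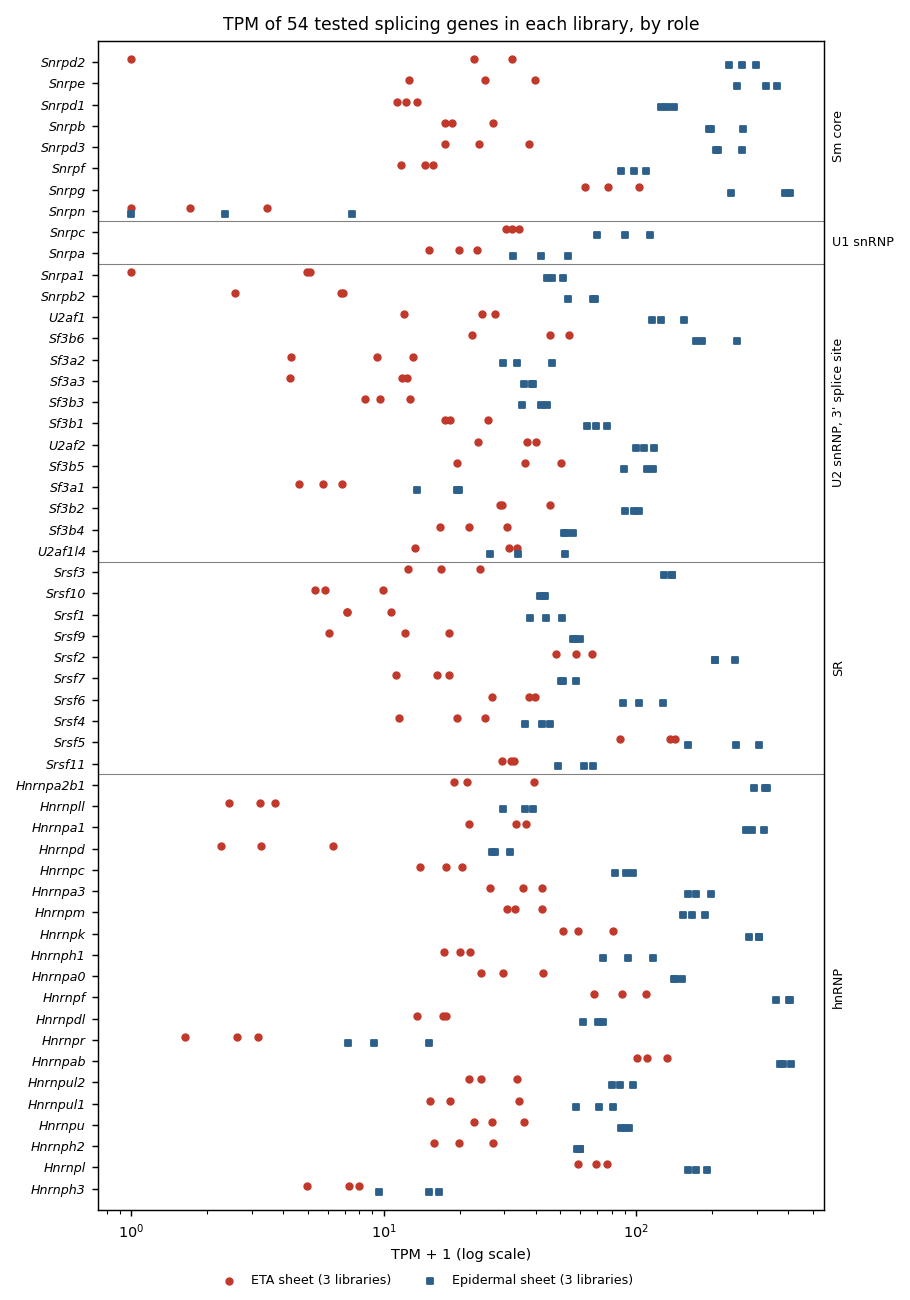
TPM plus 1, on a log axis, of the 54 tested genes in each of the 3 ETA sheets (circles) and 3 Epidermal sheets (squares), grouped by role and ordered by log2 fold change within it. In 52 genes all ETA sheets lie left of all Epidermal sheets; Snrpn and U2af1l4 overlap.

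Since most genes were lower in TPM, the members were also set against the general shift. Median centring, which gives every library the same median log2 value over the genes tested, moved the median fold change of all genes to 0.16 and that of the members to -0.63. After it 27 members (50%) were lower, beside 18.8% of all genes, and 1 (1.85%) was higher, beside 29.1% of all genes. Rescaling each library without the 100 genes of highest mean TPM left 47 members lower, and Srsf4, Srsf5, Srsf11, Snrpa and Hnrnph3 then did not pass. Scaling by trimmed means of ratios left 24 members lower (44.4%), beside 23.3% of genes, and 0 higher, beside 25.3%. The members' median was 0.79 below that of all genes on the log2 scale as deposited, and 0.64 below it with the trimmed means. Among the ETA sheets, replicate 2 had the lowest value of 45 of the 54 members, and of 51.1% of all genes tested. Without that library the members' median was -1.89, which is 0.65 below that of all genes.

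The Sm core had the lowest median of the 5 roles. Its proteins B, D1, D2, D3, E, F and G build the ring around the spliceosomal RNAs, and all 7 genes that encode them were lower. Their common median with Snrpn was a log2 fold change of -3.28, and 6 of the 8 were still lower after median centring. Snrpd1, for the D1 protein, had 12.5, 10.3 and 11.2 TPM in ETA sheets, against 125, 131 and 140 TPM in Epidermal sheets. The libraries of each group lie close together here, and the decrease was 11.6-fold (log2 fold change -3.43, SE 0.19, limma adjusted p 7.86e-06). Snrpe, for the E protein, had 38.6, 11.6 and 24.2 TPM in ETA sheets, against 325, 250 and 361 TPM in Epidermal sheets. It had the second-largest decrease of the Sm genes (-3.74, SE 0.39, limma adjusted p 8.06e-05), and every Epidermal sheet was far above every ETA sheet.

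Snrpd2, whose promoter is shown above, had 31.2, 0 and 21.7 TPM in ETA sheets, against 263, 233 and 297 TPM in Epidermal sheets. Its log2 fold change of -4.87 (SE 1.12, limma adjusted p 0.0044) was the lowest of the set, but it rests in part on replicate 2, which is listed at 0. Without that library it was -3.29, still called, and the values of the other replicates were clearly below every Epidermal sheet. With trimmed-mean scaling the gene was not called (adjusted p 0.053).

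Snrpb and Snrpd3 followed with log2 fold changes of -3.39 and -3.18, and Snrpf with -2.81. Snrpg, for the G protein, was the most abundant Sm gene. It had 102, 61.4 and 76.6 TPM in ETA sheets, against 407, 238 and 389 TPM in Epidermal sheets. It fell by 2.08 on the log2 scale (SE 0.27, limma adjusted p 0.00024), less than the other Sm ring genes, and did not pass after median centring (-0.59, adjusted p 0.084). Snrpn, the imprinted relative of Snrpb known mainly from neurons, was hardly detected, with 0.711, 2.43 and 0 TPM in ETA sheets and 1.36, 0 and 6.51 TPM in Epidermal sheets. The groups overlap and it was not called (-0.53, limma adjusted p 0.54).

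The U1 genes of the set changed little more or less than the general shift. Snrpc, whose protein U1-C helps pair U1 with the start of the intron, had 33.2, 29.5 and 31.1 TPM in ETA sheets, against 112, 89.1 and 68.9 TPM in Epidermal sheets (log2 fold change -1.47, SE 0.22, limma adjusted p 0.00050). Snrpa, for the U1-A protein, had 18.8, 22.3 and 14.04 TPM in ETA sheets, against 31.5, 41.0 and 52.8 TPM in Epidermal sheets (-1.13, SE 0.27, limma adjusted p 0.0051). Both fell without overlap in TPM, and after median centring neither passed, at 0.02 for Snrpc and 0.36 for Snrpa. With only the largest transcript of each gene, Snrpa was at -0.31 and not called.

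Of the U2 and 3′ splice site genes, 13 of 14 fell, with a median log2 fold change of -1.89, and 4 remained lower after centring. Those 4 were Snrpa1, Snrpb2, U2af1 and Sf3b6. Snrpa1 and Snrpb2 encode U2-A′ and U2-B″, which bind the U2 RNA itself. Snrpb2 had 5.90, 1.57 and 5.76 TPM in ETA sheets, against 66.3, 52.6 and 67.5 TPM in Epidermal sheets, a log2 fold change of -3.67 (SE 0.39, limma adjusted p 9.34e-05). Snrpa1 had 4.09, 0 and 3.97 TPM in ETA sheets, against 45.2, 43.2 and 50.1 TPM in Epidermal sheets (-4.00, SE 0.58, limma adjusted p 0.00042). Without replicate 2 of the ETA sheets it was at -3.23. A non-coding Snrpa1 transcript deposited without a symbol held 6.70 TPM in that library, and with such transcripts added by accession the gene was at -2.93.

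The other U2 subunits fell less. Sf3b6, the subunit that touches the branch point adenosine, was the most abundant of them, with 52.9, 21.3 and 44.6 TPM in ETA sheets, against 182, 171 and 249 TPM in Epidermal sheets (log2 fold change -2.39 with an SE of 0.34, limma adjusted p 0.00035). The remaining SF3A and SF3B genes lay between -2.16 for Sf3a2 and -1.26 for Sf3b4, all called lower as deposited and none after centring. Sf3b1, the large scaffold of the complex, had 24.8, 16.5 and 17.3 TPM in ETA sheets, against 68.6, 75.6 and 63.0 TPM in Epidermal sheets (-1.79). Within SF3B, Sf3b4 kept 42.0% of its epidermal level in ETA sheets and Sf3b6 19.7%.

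U2AF is a heterodimer, and both its subunits fell. U2af1, the small subunit that reads the end of the intron, had 26.5, 11.004 and 23.6 TPM in ETA sheets, against 154, 124 and 114 TPM in Epidermal sheets (log2 fold change -2.70, SE 0.32, limma adjusted p 0.00016). U2af2, the large subunit that binds the pyrimidine tract before it, had 39.0, 22.6 and 35.9 TPM in ETA sheets, against 98.6, 106 and 117 TPM in Epidermal sheets (-1.73, SE 0.24, limma adjusted p 0.00033). U2af1l4, a relative of the small subunit, had 32.7, 12.3 and 30.2 TPM in ETA sheets, against 25.4, 33.1 and 51.2 TPM in Epidermal sheets. The groups overlap and it was not called (-0.58, limma adjusted p 0.22). U2af1l4 averaged 25.1 TPM and U2af1 20.4 TPM in ETA sheets, against 36.6 TPM for U2af1l4 and 131 TPM for U2af1 in Epidermal sheets. The U2af1 values leave out a transcript deposited without a symbol. It had 12.4 TPM in ETA sheet replicate 2 and 0 in every other library, so the order of U2af1l4 and U2af1 in ETA sheets is uncertain.

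**Figure D2:**
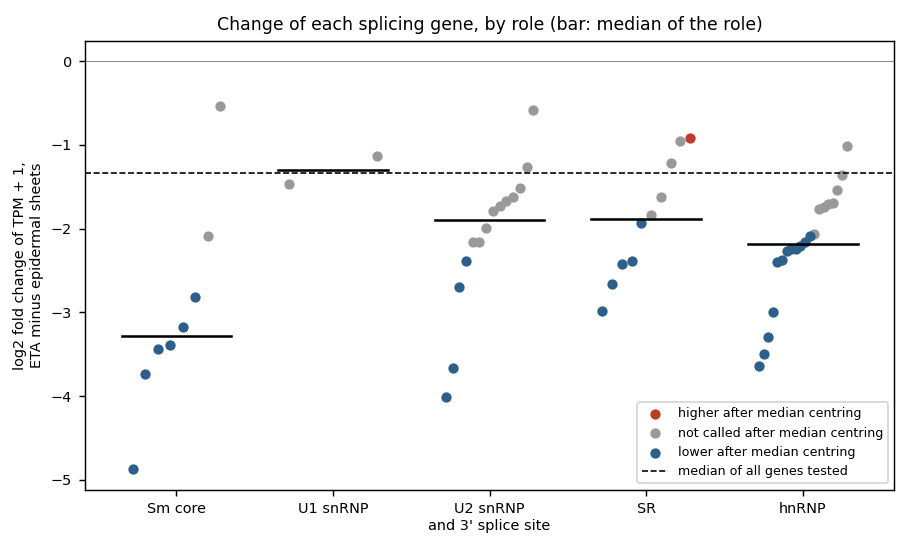
Log2 fold change of TPM plus 1, ETA minus Epidermal sheets, of each of the 54 tested genes by role, with the role's median as a bar and the median of all genes tested (-1.34) as a dashed line. Colour gives the call after median centring: most Sm genes are lower, 1 SR gene (Srsf11) is higher, and both U1 genes lie near the dashed line.

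All 10 tested SR genes fell, with a median log2 fold change of -1.88, and they spread on both sides of the general shift. Srsf5, an SR protein whose mRNA is known to respond quickly to cell signals, was the most abundant gene of the whole set in ETA sheets and ranked 9 in Epidermal sheets. It had 135, 85.0 and 141 TPM in ETA sheets, against 159, 247 and 306 TPM in Epidermal sheets. As summed by symbol, the lowest Epidermal sheet lies close to the highest ETA sheet, and the decrease was small (-0.96, SE 0.29, limma adjusted p 0.017). Srsf5 did not pass without Epidermal sheet replicate 2 (-0.90) or replicate 3 (-0.75), where the adjusted p was 0.053 and 0.065. Not counted here are 2 Srsf5 transcripts deposited without a symbol. The first had 21.3, 2.60 and 21.0 TPM in ETA sheets, against 70.4, 59.8 and 10.3 TPM in Epidermal sheets. The second had 4.26, 44.9 and 6.48 TPM in ETA sheets, against 38.6, 47.5 and 10.8 TPM in Epidermal sheets.

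Srsf11 had 31.7, 30.8 and 28.4 TPM in ETA sheets, against 61.1, 66.6 and 48.0 TPM in Epidermal sheets. Its decrease of 0.92 on the log2 scale (SE 0.20, limma adjusted p 0.0035) was the smallest of the called members. After median centring it was the only member called higher (0.58, adjusted p 0.046), a call it did not reach with trimmed-mean scaling (0.56). With the largest transcript alone it was at -0.57 and not called lower. Srsf4 fell by 1.21 and lay above the general shift too.

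At the other end stood Srsf3, the smallest SR protein, with 23.0, 11.4 and 15.9 TPM in ETA sheets, against 138, 128 and 138 TPM in Epidermal sheets. It was 8.01-fold lower (log2 fold change -2.98, SE 0.26, limma adjusted p 3.98e-05). Srsf10 (-2.66), Srsf1 (-2.42), Srsf9 (-2.39) and Srsf2 (-1.93) were the other SR genes still lower after centring. With trimmed-mean scaling Srsf9 (limma adjusted p 0.054) and Srsf2 (limma adjusted p 0.072) were not called. Srsf1 is the founding member of the family, and it had 9.64, 6.17 and 6.17 TPM in ETA sheets, against 36.8, 43.0 and 49.8 TPM in Epidermal sheets. Srsf2, the second most abundant SR gene in ETA sheets, had 66.0, 47.2 and 56.7 TPM there, against 204, 246 and 205 TPM in Epidermal sheets. The ratio of Srsf11 to Srsf3, which no scaling between libraries can move, was 1.38, 2.69 and 1.79 in ETA sheets, against 0.444, 0.521 and 0.348 in Epidermal sheets. Srsf11 thus exceeded Srsf3 in TPM summed by symbol in every ETA sheet and was below it in every Epidermal sheet, for a pair picked at the ends of the SR range. The Srsf3 values leave out a transcript deposited without a symbol. That transcript had 6.63, 10.7 and 8.05 TPM in ETA sheets, against 30.2, 46.6 and 57.2 TPM in Epidermal sheets. Counting it would lower the ratio in every library.

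All 20 tested hnRNP genes fell, with a median log2 fold change of -2.18, and 12 were still lower after centring. The classic core hnRNP genes were among them. Hnrnpa2b1 had 38.4, 18.0 and 20.4 TPM in ETA sheets, against 292, 330 and 323 TPM in Epidermal sheets (-3.64, SE 0.28, limma adjusted p 2.54e-05). Hnrnpa1, a regulator that often opposes SR proteins, had 32.3, 20.8 and 35.6 TPM in ETA sheets, against 320, 285 and 270 TPM in Epidermal sheets (-3.29, SE 0.23, limma adjusted p 1.87e-05). These were 12.3-fold and 9.88-fold decreases, with every ETA sheet far below every Epidermal sheet. The Hnrnpa2b1 values leave out a transcript deposited without a symbol. That transcript had 9.40, 12.9 and 14.9 TPM in ETA sheets, against 64.4, 62.9 and 36.9 TPM in Epidermal sheets. Hnrnpc, which binds uridine runs in introns, fell less (-2.40), as did Hnrnpa3 (-2.37) and Hnrnpa0 (-2.21) of the A family.

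Hnrnpll, known in lymphocytes for its control of Ptprc splicing, had 2.72, 2.25 and 1.44 TPM in ETA sheets, against 35.3, 28.7 and 38.0 TPM in Epidermal sheets (log2 fold change -3.49 with an SE of 0.27, limma adjusted p 2.60e-05). The T cell markers also fell, with 5 of 5 tested called lower and sums of 5.25 to 9.02 TPM in ETA sheets and 134 to 149 TPM in Epidermal sheets. Ptprc had 3.18, 0.32 and 0.84 TPM in ETA sheets, against 5.94, 7.34 and 7.92 TPM in Epidermal sheets. The part of these cells in the Hnrnpll difference was not tested. Its paralog Hnrnpl had 75.4, 57.9 and 68.5 TPM in ETA sheets, against 160, 189 and 172 TPM in Epidermal sheets (-1.36, SE 0.18, limma adjusted p 0.00027), close to the median of all genes.

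Hnrnpf, Hnrnpab and Hnrnpk were among the 6 most abundant genes of the set in both groups. Hnrnpf, whose protein binds runs of G, had 109, 67.1 and 86.8 TPM in ETA sheets, against 357, 402 and 404 TPM in Epidermal sheets (log2 fold change -2.16, SE 0.21, limma adjusted p 6.13e-05), ranking 3 in ETA and 1 in Epidermal sheets. Hnrnpab ranked 2 in both, with 131, 99.4 and 109 TPM in ETA sheets, against 370, 381 and 408 TPM in Epidermal sheets (-1.77, SE 0.17, limma adjusted p 6.30e-05). Hnrnpk, a binder of C-rich runs, ranked 6 in both, with 80.1, 50.3 and 57.8 TPM in ETA sheets, against 278, 305 and 304 TPM in Epidermal sheets (-2.25, SE 0.21, limma adjusted p 5.21e-05). Of the 10 most abundant members in each group, 5 were shared.

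Within the H and F family, whose proteins are close relatives, Hnrnph1 fell by 2.24, Hnrnpf by 2.16, Hnrnph2 by 1.54 and Hnrnph3 by 1.02 on the log2 scale. Hnrnph3 had 6.26, 6.98 and 3.95 TPM in ETA sheets, against 14.1, 8.58 and 15.5 TPM in Epidermal sheets. The groups come close to each other, and the gene (SE 0.32, limma adjusted p 0.019) did not pass without ETA sheet replicate 3, Epidermal sheet replicate 1 or Epidermal sheet replicate 3 (adjusted p 0.066 to 0.076). Hnrnpm (-2.27), Hnrnpd (-2.99), Hnrnpdl (-2.09), Hnrnpr (-2.07), Hnrnpu (-1.69), Hnrnpul1 (-1.71) and Hnrnpul2 (-1.75) completed the hnRNP genes that fell. Hnrnpu, the scaffold attachment protein, and its relatives were not called after centring. With the largest transcript alone, Hnrnph2 (adjusted p 0.081) and Hnrnpr (adjusted p 0.053) were not called lower. Many genes of this set have near-identical relatives or processed pseudogenes, and with paired reads of 25 bp the split of reads among such copies is uncertain.

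The make-up of the set also differed, by a measure that needs no scaling between libraries. Each role was taken as a percentage of the summed TPM of the 56 genes in its library. The Sm core made up 14.3%, 11.8% and 12.8% in ETA sheets, against 25.6%, 20.7% and 24.8% in Epidermal sheets. The SR genes made up 20.3%, 21.5% and 22.9% in ETA sheets, against 13.4%, 15.5% and 15.1% in Epidermal sheets. The Sm and SR shares do not overlap and changed places, with SR genes ahead of Sm genes in each ETA sheet and behind them in each Epidermal sheet. Srsf5 alone held 7.43%, 7.68% and 9.62% of the set in ETA sheets, against 2.41%, 3.81% and 4.30% in Epidermal sheets. The SR difference and this order thus rest in part on Srsf5, whose transcripts deposited without a symbol are not counted.

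The U1 genes made up 2.86%, 4.69% and 3.07% in ETA sheets, against 2.18%, 2.01% and 1.71% in Epidermal sheets, again with no overlap. The U2 and 3′ splice site genes overlapped, with a mean of 17.7% ± 2.3 in ETA sheets and 15.4% ± 0.3 in the Epidermal sheets (n = 3 each, SD). The overlap rests on ETA sheet replicate 2, at 15.0%, against 19.3% and 18.9% in the other ETA sheets and 15.2% to 15.7% in Epidermal sheets. Without it the U2 difference was 3.68 in place of 2.34 percentage points, and the U1 difference 0.998 in place of 1.57. The hnRNP genes overlapped too, at 44.2% ± 2.4 in ETA sheets and 44.3% ± 1.9 in the Epidermal sheets (n = 3 each, SD). By exact permutation, the two-sided p was 0.1 for the Sm, SR and U1 shares, 0.4 for U2 and 1.0 for hnRNP. Adjusted over the 5 roles these are 0.167, 0.5 and 1.0, so none passed 0.05, which 3 against 3 cannot reach. The shares of the roles add to a fixed total and are not independent.

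**Figure D3:**
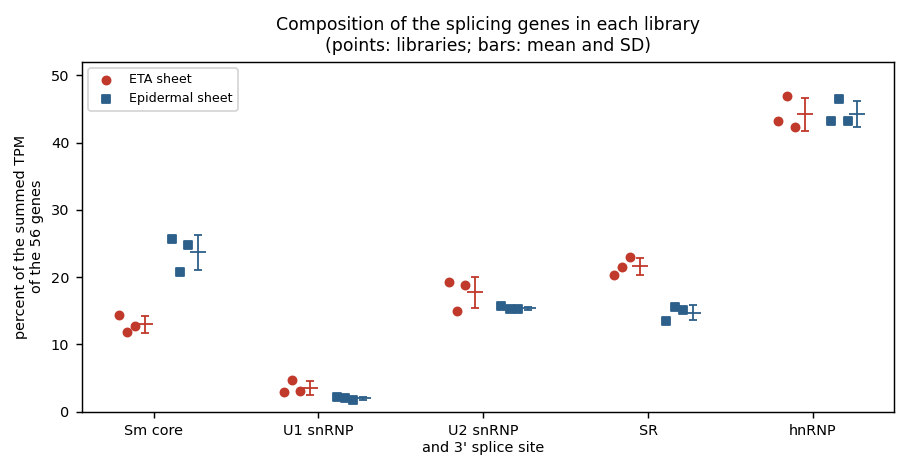
Percentage of the summed TPM of the 56 genes held by each role in the 3 ETA sheets (circles) and 3 Epidermal sheets (squares), with mean and SD beside the points. Sm shares lie lower and SR and U1 shares higher in ETA sheets without overlap; U2 and hnRNP shares overlap.

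Member by member, 19 of the 54 tested genes held a larger share of the set in every ETA sheet than in any Epidermal sheet, 17 held a smaller share and 18 overlapped. Set against the same sum, 43.4% of all genes tested were higher and 15.8% lower in ETA sheets, beside 35.2% and 31.5% of the members. The members with smaller shares included 6 Sm genes, 6 hnRNP genes, 3 U2 or 3′ splice site genes and 2 SR genes. Those with larger shares were 7 hnRNP genes, 5 U2 or 3′ splice site genes, 5 SR genes and both U1 genes, and none of the Sm core. In rank of TPM within the set, Snrpd2 stood at 34 in ETA sheets and at 8 in Epidermal sheets, Snrpe at 24 in ETA and 5 in Epidermal sheets, Hnrnpa2b1 at 21 in ETA and 4 in Epidermal sheets, and Srsf5 at 1 in ETA and 9 in Epidermal sheets. The first 3 thus stood lower in the order in ETA sheets, and Srsf5 higher.

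The other spliceosome genes moved the same way in the main. Lists of such genes, picked by function, held 132 genes, all tested. Of these 111 fell (84.1%, beside 63.6% of all genes tested), 2 rose (1.52%, beside 10.1%) and 19 did not pass. Their median log2 fold change was -1.71, between that of the members (-2.12) and of all genes (-1.34). After median centring 38 were lower (28.8%, beside 18.8% of all genes) and 18 higher (13.6%, beside 29.1%). With trimmed-mean scaling 40 were lower (30.3%, beside 23.3%) and 14 higher (10.6%, beside 25.3%).

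Both genes that rose regulate SR proteins. Srpk1, the kinase that phosphorylates SR proteins in the cytoplasm and so lets them enter the nucleus, had 186, 134 and 215 TPM in ETA sheets, against 59.8, 72.3 and 64.5 TPM in Epidermal sheets. Every ETA sheet lies well above every Epidermal sheet, and the log2 fold change was 1.41 (SE 0.22, limma adjusted p 0.00057). Clk4, a nuclear kinase of SR proteins, had 46.6, 39.4 and 53.0 TPM in ETA sheets, against 33.8, 26.7 and 23.8 TPM in Epidermal sheets (0.71, SE 0.22, limma adjusted p 0.018). Clk4 did not pass with its largest transcript alone (0.54), nor without ETA sheet replicate 3 (0.61), Epidermal sheet replicate 2 (0.68) or Epidermal sheet replicate 3 (0.60), with adjusted p of 0.056 to 0.077.

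The related kinases did not all pass, and not all in the same direction. Clk1 was the most abundant gene of its list, with 207, 285 and 311 TPM in ETA sheets, against 217, 193 and 176 TPM in Epidermal sheets. The groups overlap and Clk1 was not called (0.43, limma adjusted p 0.081), but it was called without ETA sheet replicate 1 (0.61, adjusted p 0.0088) and with unnamed transcripts added by accession (0.83, adjusted p 0.0020). Clk3 had 45.4, 25.8 and 35.3 TPM in ETA sheets, against 61.1, 50.3 and 29.99 TPM in Epidermal sheets (-0.38, limma adjusted p 0.30). Clk2 fell, with 6.85, 2.60 and 5.18 TPM in ETA sheets, against 19.2, 21.4 and 20.1 TPM in Epidermal sheets (-1.92, limma adjusted p 0.00086). Srpk2 fell as well, with 4.31, 3.74 and 3.99 TPM in ETA sheets, against 21.7, 25.7 and 27.0 TPM in Epidermal sheets (-2.36, limma adjusted p 6.64e-05). Srpk1, Clk1, Clk3 and Clk4 were higher after median centring, as was Scaf1, whose call was lost with trimmed means (adjusted p 0.076). These 5 of 17 genes are 29.4% of the list, near the 29.1% of all genes called higher after centring.

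**Figure D4:**
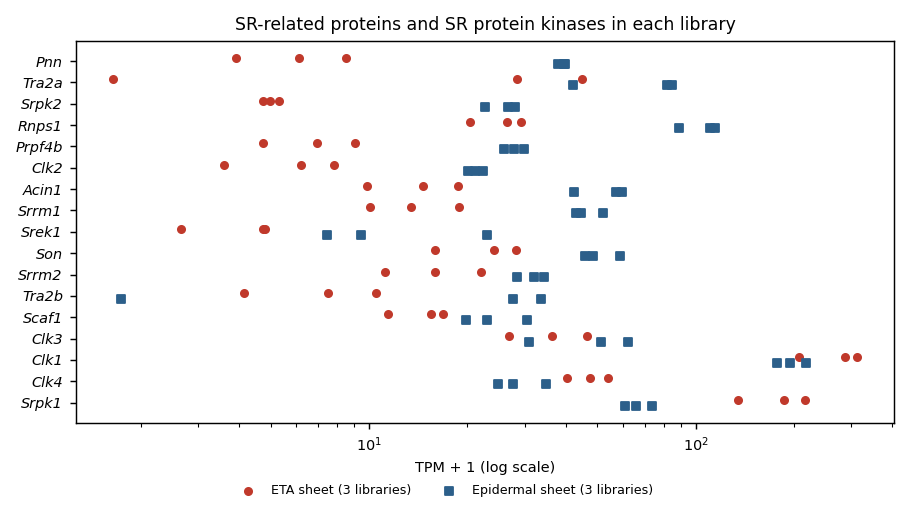
TPM plus 1, on a log axis, of the 17 SR-related proteins and SR protein kinases in each of the 3 ETA sheets (circles) and 3 Epidermal sheets (squares), ordered by log2 fold change. Srpk1 and Clk4 at the bottom have all ETA sheets right of all Epidermal sheets, Clk1, Clk3, Tra2a and Tra2b overlap, and most others lie to the left in ETA sheets.

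In the same list, 11 of 17 genes fell, or 64.7%, near the 63.6% of all genes. The lowest was Pnn, for the speckle protein pinin, with 7.54, 2.93 and 5.09 TPM in ETA sheets, against 38.6, 38.9 and 36.9 TPM in Epidermal sheets (log2 fold change -2.73, SE 0.31, limma adjusted p 0.00012). Tra2a and Tra2b, the SR-like Transformer-2 proteins, were not called, with libraries that disagreed within a group: Tra2b had 9.52, 6.48 and 3.14 TPM in ETA sheets, against 0.744, 26.5 and 32.6 TPM in Epidermal sheets.

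Of 23 tri-snRNP and LSm genes 20 fell (87.0%, beside 63.6% of all genes tested). The LSm proteins form a ring like that of the Sm proteins, on U6 RNA. Lsm3 had 13.6, 7.71 and 9.29 TPM in ETA sheets, against 203, 187 and 225 TPM in Epidermal sheets, a 20.1-fold decrease (log2 fold change -4.23 with an SE of 0.24, limma adjusted p 8.25e-06). Its ring partner Lsm4 had 71.0, 83.8 and 94.2 TPM in ETA sheets, against 126, 92.8 and 112 TPM in Epidermal sheets, and was not called (-0.40, limma adjusted p 0.097). Lsm4 was higher after centring (1.09, adjusted p 0.010) and Lsm3 lower (-2.74, adjusted p 1.74e-05).

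Of 24 genes of the PRP19 complex and catalytic steps 20 fell (83.3%, beside 63.6% of all genes tested), with a median log2 fold change of -1.53. Prpf19 was the lowest at 3.48, 2.68 and 1.58 TPM in ETA sheets, against 27.7, 31.2 and 31.0 TPM in Epidermal sheets (log2 fold change -3.15, SE 0.28, limma adjusted p 4.37e-05). Syf2 was the most abundant (-0.88); it was higher after centring (0.61, adjusted p 0.010) and was not called after rescaling without the 100 most abundant genes (-0.35, p 0.068 adjusted). Dhx38 was the highest at -0.08, with values of 0.407 TPM in ETA sheet replicate 2 and 0 in Epidermal sheet replicate 2, and was not called. Of 17 early complex genes 15 fell (88.2%, beside 63.6% of all genes tested). Their median log2 fold change was -1.39, near the -1.34 of all genes. After median centring 4 were lower (23.5%, beside 18.8% of all genes) and 3 higher (17.6%, beside 29.1%). The abundant helicase gene Ddx5 fell (-1.53) but was not called after centring (-0.03, limma adjusted p 0.89). Prpf39 was not called as deposited (-0.48, limma adjusted p 0.13).

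All 5 exon junction complex genes fell. Magoh, a core subunit left on the RNA after splicing, had 38.6, 23.5 and 41.0 TPM in ETA sheets, against 214, 247 and 297 TPM in Epidermal sheets (log2 fold change -2.87 with an SE of 0.25, limma adjusted p 4.22e-05). Its partner Eif4a3 fell by 0.98, a call lost when rescaled without the 100 most abundant genes (-0.45, with an adjusted p of 0.0501). It was higher after centring (0.51, adjusted p 0.034) but not with trimmed means (0.51, adjusted p 0.057). Of 13 genes for the assembly of snRNPs, which load the Sm ring, 11 fell (84.6%, beside 63.6% of all genes tested). Gemin7 had 5.81, 0 and 1.77 TPM in ETA sheets, against 72.3, 41.6 and 75.9 TPM in Epidermal sheets (-4.55, SE 0.62, limma adjusted p 0.00031). Without ETA sheet replicate 2 it was at -3.84, and without replicate 1 at -5.22. Strap (-1.45) was the most abundant of the list, and Wdr77, a partner of the methylase that marks Sm proteins, was not called (-0.24, limma adjusted p 0.34).

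Of 33 other splicing regulators 29 fell (87.9%, beside 63.6% of all genes tested). Celf1, a binder of GU-rich RNA, was lowest with 4.55, 1.38 and 3.36 TPM in ETA sheets, against 35.9, 41.5 and 32.0 TPM in Epidermal sheets (log2 fold change -3.27, SE 0.34, limma adjusted p 8.52e-05), and was not called with its largest transcript alone (-1.79, adjusted p 0.27). Pcbp1, the most abundant, fell by 1.28. Tial1 had 4.39, 5.07 and 3.65 TPM in ETA sheets, against 0, 17.9 and nearly 0 TPM in Epidermal sheets, and was not called (1.003, limma adjusted p 0.39). It was called higher without Epidermal sheet replicate 2 (2.42), and with unnamed transcripts added by accession its direction turned to a called decrease (-1.65, adjusted p 0.00023).

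The 7 genes spelled Snrnp all fell, beside 63.6% of all genes tested. Snrnp70, the U1 protein that holds the particle together, had 46.2, 32.2 and 35.5 TPM in ETA sheets, against 135, 119 and 120 TPM in Epidermal sheets (log2 fold change -1.70 with an SE of 0.20, limma adjusted p 0.00014). Its decrease was near those of Snrpc and Snrpa, and like them it was not called after centring. Snrnp40 and Snrnp27, of the U5 particle and tri-snRNP, fell by 3.75 and 3.52 and were the 2 of the 7 still lower after centring. Snrnp200, the helicase that unwinds U4 from U6, fell by 1.16. Snrnp25, Snrnp35 and Snrnp48 belong to the minor spliceosome and fell by 1.73, 1.73 and 1.92. The Snrnp35 call was not stable: it was lost without ETA sheet replicate 2 (-1.06), Epidermal sheet replicate 2 (-1.43) or Epidermal sheet replicate 3 (-1.56), with a pseudocount of 0.1, with no filter, with the largest transcript and rescaled without the 100 most abundant genes, at adjusted p of 0.060 to 0.12.

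Splicing factors regulate their own transcripts, often through non-coding forms, so the deposited transcripts of each gene were compared. Of the 56 genes 22 have more than 1 transcript in the table, and 20 of these had at least 1 TPM in every library. Of their 56 compared transcripts, 9 had shares of their gene with no overlap between groups, 16.1%, beside 15.1% of 5677 transcripts of all genes. The members' transcript shares thus differed between the sheets about as often as those of other genes. The 9 transcripts belong to Hnrnpa1, Hnrnpd, Hnrnpm, Hnrnpf and Srsf7, and 8 of them moved by at least 20 percentage points in the mean.

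The shares within a group varied widely. The range over the 3 libraries had a median of 34.1 percentage points in ETA sheets and 24.3 in Epidermal sheets, and 34 of the 56 transcripts had a share of 0 or 100% in at least 1 ETA sheet, against 14 in at least 1 Epidermal sheet. Such estimates from short reads limit what can be read from a transcript. Without ETA sheet replicate 1, 2 or 3, the transcripts with no overlap numbered 14, 18 and 15, which is 24.6%, 30.5% and 26.3% of those compared, beside 23.4%, 25.3% and 23.1% of the transcripts of all genes. Without Epidermal sheet replicate 2 they numbered 14 (25.0%, beside 24.2%). Leaving out Epidermal sheet replicate 1 or 3 instead put the members below all genes. The transcripts with no overlap then numbered 11 without replicate 1 (19.6%, beside 22.8%). They numbered 11 without replicate 3 as well, a smaller percentage than the 23.7% of all genes. In Hnrnpf, the transcript NM_001166427 held 33.9%, 49.6% and 45.7% in ETA sheets, against 17.4%, 22.9% and 17.4% in Epidermal sheets, and NM_001166430 held 25.0%, 32.1% and 19.1% in ETA sheets, against 11.96%, 12.9% and 15.4% in Epidermal sheets. In Hnrnpd, NM_001077265 held 17.1%, 0% and 31.9% in ETA sheets, against 53.9%, 76.4% and 82.1% in Epidermal sheets. The ETA shares of Hnrnpd rest on low values, as the gene had 5.30, 1.26 and 2.25 TPM there and this transcript 0.905, 0 and 0.719 TPM.

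RefSeq marks 1 transcript as non-coding in each of 8 members. For Hnrnpa2b1 it made up 19.7%, 41.8% and 42.1% of the gene in ETA sheets, against 18.0%, 16.03% and 10.3% in Epidermal sheets, counting a transcript deposited without a symbol. The groups do not overlap, although the first ETA sheet is close to the first Epidermal sheet. In TPM the same transcript had 9.40, 12.9 and 14.9 in ETA sheets, against 64.4, 62.9 and 36.9 in Epidermal sheets, so it too was lower. For Srsf3 the non-coding share was 22.3%, 48.3% and 33.6% in ETA sheets, against 18.0%, 26.7% and 29.3% in Epidermal sheets, with overlap. The non-coding shares of Srsf7, Hnrnpa1 and Hnrnpu overlapped too, and so did those of Hnrnpll, Snrpa1 and Srsf9, where they were at 0 in most libraries.

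Transcript properties were weakly related to the size of change across the 54 tested members, given here as a description of genes that share libraries and are not independent. Spearman's rho between the log2 fold change and transcript length was 0.17, against 0.10 over all genes tested. With GC content it was 0.29 in the members and 0.07 over all genes. With the level in Epidermal sheets, which is part of the fold change itself, it was -0.31 in the members and -0.23 over all genes.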

How the data were processed

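Total RNA of ETA and Epidermal sheets was made into strand-keeping libraries and sequenced from both ends at 25 bp, per the labels' protocols. The submitters' processing notes name Salmon, Bowtie2 and mm9; their roles and versions are not given in the sources used here. The authors deposited 1 table of TPM, length-corrected shares that sum to 1000000 per library, for 37903 transcripts, 7951 of them without a symbol. TPM keeps no depth, so no counting interval could be given, and n = 3 per group.

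TPM was summed per symbol. Columns were given to samples by library number. For genes averaging 1 TPM or more, log2(TPM + 1) was fitted in limma (version 3.58.1, under R 4.3.3) with a variance trend; p-values were adjusted by Benjamini-Hochberg over 11683 genes and called at 0.05. Fold changes on this scale understate the change of low genes. Shares were compared by two-sided exact permutation in Python 3.11.15 with scipy 1.17.1. The fit was tested on simulated data. All 56 members matched the RefSeq gene table (GRCm38.p6), and 18 unnamed transcripts carry an accession of a member.

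The members, gene lists and tests were chosen with earlier results of these data known. Genes named are, per role, the 3 most abundant, then over the set the 5 highest and lowest fold changes, those not called, those lower after median centring and those whose transcripts moved by at least 20 percentage points; per list the most abundant, highest and lowest. Of the genes chosen in this way, 1 is not reported here. The non-overlapping transcripts' accessions, the kinase relatives, Srsf4, Snrpa1's unnamed transcript and genes given for their subunit partners were picked after their values were seen. Alternatives were pseudocounts of 0.1 and 5, no filter, a mean of at least 5 TPM, median centring, trimmed means (30% of ratios, 5% of levels), rescaling without the 100 most abundant genes, library weights, a replicate block, the largest transcript, no variance trend, names by accession, header groups and leaving out libraries.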

Additional observations from a re-analysis of the deposited data

How the results depend on the processing

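With TPM as deposited, 52 members were lower and 0 higher; median centring gave 27 lower and 1 higher, trimmed-mean scaling 24 lower, and grouping by header names 0 lower. The pathway genes called lower, 111 as deposited, numbered 38, 40 and 0 under these settings, and those called higher, 2 as deposited, 18, 14 and 0. With the largest transcript 1 was higher, and leaving out 1 library gave 1 to 3. The members' median log2 fold change, -2.12 as deposited, was -0.63 after centring, -0.69 with trimmed means, -1.66 rescaled without the 100 most abundant genes and -0.90 by header names. It was -2.27 to -1.89 leaving out 1 library. Other pseudocounts, filters, the variance trend, library weights, accession names and the largest transcript moved neither the members' count by 1.5 times nor their median beyond the spread between libraries. Library weights were 5.37 for ETA sheet replicate 3, against 0.37 and 0.34 for ETA sheet replicates 1 and 2, so that fit rests mostly on 1 ETA sheet.

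The hnRNP share of the set, 0.11 percentage points lower in ETA sheets (-0.11), overlapped between groups and ranged from -1.49 to 1.01 leaving out 1 library. Transcripts with no overlap, 9 with all libraries, numbered 11 to 18 leaving out 1 library. These are 19.6% to 30.5% of those compared, beside 22.8% to 25.3% of the transcripts of all genes. They numbered 29 (50%, beside 44.9% of the transcripts of all genes) without ETA sheet replicates 1 and 2 together.

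Same-numbered libraries had correlations of 0.02, -0.03 and -0.04 in their deviations from the group means. With 3 libraries per group these values cannot show whether the numbers pair the sheets. With the replicate block 52 members were lower and their median was -2.12.

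Single genes turned sign mostly with the scaling. After centring and with trimmed means, in that order, the log2 fold changes were for Hnrnph3 0.48 and 0.32, Hnrnpl 0.13 and 0.13, Sf3b4 0.24 and 0.20, Snrpa 0.36 and 0.32, Snrpc 0.023 and 0.0066, Snrpn 0.96 and 0.10, Srsf11 0.58 and 0.56, Srsf4 0.28 and 0.24, Srsf5 0.54 and 0.54, and U2af1l4 0.91 and 0.87. Outside the set they were for Syf2 0.61 and 0.61, Dhx38 1.42 and 0.92, Lsm4 1.09 and 1.09, Prpf39 1.01 and 0.87, Eif4a3 0.51 and 0.51, Pcbp1 0.22 and 0.22, Strap 0.040 and 0.024, Wdr77 1.25 and 1.18, and Snrnp200 0.34 and 0.24. Rescaled without the 100 most abundant genes, Dhx38 was at 0.41, Lsm4 at 0.14, Prpf39 at 0.0055 and Wdr77 at 0.28. By header names, Snrpn was at 0.89, Dhx38 at 0.15, Lsm4 at 0.029, Wdr77 at 0.080 and Tial1 at -0.62, and by accession Tial1 was at -1.65. Dhx38 was also at 0.52 with a pseudocount of 0.1, at 0.76 with library weights, at 0.91 without ETA sheet replicates 1 and 2 together, and between -1.39 and 0.95 leaving out 1 library. Scaling causes these turns by construction, since it shifts all genes; for the others the cause was not tested.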
